A study of Homo sapiens with 60 samples.

Results

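The transcripts described here encode the proteasome, the protease complex that degrades proteins tagged with ubiquitin, together with the factors that activate it, assemble it and control its genes. The set was chosen by name and held 44 genes of the 60675 in the count table: PSMA1 to PSMA7, PSMB1 to PSMB7, PSMC1 to PSMC6, PSMD1 to PSMD14, PSME1 to PSME4, PSMG1 to PSMG4, POMP and NFE2L1. All 44 were found by their Ensembl identifiers and all 44 passed the filter on low counts. They were divided by role into 8 classes: 7 alpha and 7 beta subunits of the core, 9 base and 8 lid subunits of the regulatory particle, 4 activators, 5 core assembly factors, 3 base assembly factors and the transcription factor NFE2L1.

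RNA was sequenced from HepG2, a human liver cancer cell line, after 24 h of treatment, in 60 libraries that form 20 groups of 3. Water extracts of 6 herbs, Poria Cocos (Poria), Glycyrrhizae Radix (licorice), Angelicae Gigantis Radix (angelica), Paeoniae Radix (peony), Atractylodis Rhizoma (Atractylodes) and Panax Ginseng (ginseng), were each given at 20, 100 and 500 µg/mL. Wortmannin at 10 µM, an inhibitor of phosphoinositide kinases, was the study's positive control, and the single vehicle group received DMSO at 0.1% per the sample labels, or 2% per the series' design text; the labels of the other groups give no DMSO. All groups are of 1 cell line, and nothing in the labels says that the replicates came from separate cultures, so p-values measure the spread between these libraries, which may be technical. All sample titles name the same batch, BatchA. A set here is the first part of a library's code, and no sample label says what that part stands for. The vehicle carries a set label that no extract and not wortmannin shares, so treatment, set and DMSO cannot be told apart against vehicle. The 3 doses of an extract lie within 1 set. Set 2 holds Poria and Atractylodes, set 3 licorice and ginseng, and set 4 angelica and peony.

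Libraries held 20.9 M to 33.4 M counts, with a median of 26.1 M, and the fewest counts of any member in any library were 301, for PSMG3. Levels are given in CPM, a gene's count scaled to a fixed total per library and so a share of its RNA, so fewer cells of a type and less RNA per cell cannot be told apart. The 10 hepatocyte and hepatoma markers were expressed in every library, and ALB stood at 10252 CPM or more. Of 6 blood cell markers, PTPRC was 0 in every library and CD3E and HBB stayed at 0.128 CPM or less, while LYZ was at 1271 to 2988 CPM, which sets the range of the summed list, 1276 to 2990.5 CPM. Of 6 fibroblast markers, 5 stayed under 1 CPM and ACTA2 was at 34.6 to 76.3 CPM. LYZ and ACTA2 moved with treatment. LYZ was higher by 0.72 on the log2 scale with wortmannin and rose by 0.52 over the doses of Poria. ACTA2 changed by -0.83 over those doses. Of the 10 hepatoma markers, 3 rose and 2 fell over the doses of Poria, where 22.3% of all genes tested rose and 21.2% fell. Over the doses of licorice 1 rose and 8 fell, beside 11.0% and 10.3% of all genes tested. With wortmannin 5 were higher and 1 lower than with vehicle, beside 22.4% and 24.0%. TTR varied the most in relative terms among these 10, over 131 to 509 CPM, with 495 ± 15.9 CPM with wortmannin and 168 ± 8.37 CPM with vehicle (SD, n = 3). Their part in the results below was not tested. The mitochondrial share of counts was 8.10 to 15.2%, highest in Poria 100 µg/mL replicate 1. That library also had the fewest counts and stood apart from its group, at a chi-square per gene of 26.5 and 27.0 from the other 2 replicates, which differed from each other by 3.23; pairs in the other groups differed by up to 22.7. The 100 µg/mL group enters a dose trend only through the shared spread, and without this library the Poria trend called 30 members higher and 2 lower, as with it.

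The core particle is a barrel of stacked rings in which the beta subunits PSMB5, PSMB6 and PSMB7 carry the catalytic sites. The regulatory particle caps it: its base holds the PSMC ATPases that unfold substrates, and its lid holds PSMD14, the enzyme that removes ubiquitin chains. NFE2L1 is a transcription factor held in the endoplasmic reticulum membrane that raises proteasome genes when proteasome activity is short, and it binds the same kind of antioxidant response element (ARE) as its relative NRF2, the product of NFE2L2. NRF2 is the main driver of antioxidant genes such as NQO1 and GCLM.

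Because NFE2L1 and NRF2 share this element, promoter windows of 4 members whose transcripts moved in opposite directions over the doses of Poria are shown. PSMD12 and PSMD3 of the lid and PSMB3 of the core rose, and the activator PSME1 fell. The windows come from RefSeq on GRCh38.p14 and hold the part of the 250 bases before the gene's start that lies outside annotated exons; each is written 5′ to 3′ on the gene's strand, with the ARE match in capitals.
PSMD12: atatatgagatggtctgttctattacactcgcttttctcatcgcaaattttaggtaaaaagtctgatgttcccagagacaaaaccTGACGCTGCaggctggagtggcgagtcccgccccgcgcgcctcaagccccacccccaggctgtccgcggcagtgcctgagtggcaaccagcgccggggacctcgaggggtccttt
PSMD3: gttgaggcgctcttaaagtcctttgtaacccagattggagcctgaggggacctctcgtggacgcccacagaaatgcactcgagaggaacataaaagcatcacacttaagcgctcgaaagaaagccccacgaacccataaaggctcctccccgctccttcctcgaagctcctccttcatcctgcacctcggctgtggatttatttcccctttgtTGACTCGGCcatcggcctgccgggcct
PSMB3: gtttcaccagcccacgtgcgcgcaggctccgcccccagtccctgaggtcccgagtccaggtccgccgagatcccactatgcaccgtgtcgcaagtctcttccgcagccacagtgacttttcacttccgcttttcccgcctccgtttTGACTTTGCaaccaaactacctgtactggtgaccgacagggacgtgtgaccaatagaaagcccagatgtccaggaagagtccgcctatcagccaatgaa
PSME1: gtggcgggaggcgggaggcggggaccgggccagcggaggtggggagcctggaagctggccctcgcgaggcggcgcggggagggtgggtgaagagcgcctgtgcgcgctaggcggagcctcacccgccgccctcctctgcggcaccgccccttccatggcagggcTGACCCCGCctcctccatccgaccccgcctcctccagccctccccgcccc
The PSMD12 window is chr17:67366628-67366827 on the minus strand, the PSMD3 window chr17:39980557-39980796 on the plus strand, the PSMB3 window chr17:38752491-38752735 on the plus strand and the PSME1 window chr14:24135944-24136157 on the plus strand.

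The motif searched was TGACNNNGC on both strands in the 250 bases before each start. RefSeq promoters matched 38 of the 44 members, with 46 starts, and 12 members held the motif. It was at 12 of the 46 starts, or 26.1%, against 10.9% of all 35116 promoters. The 12 members were PSMA4, PSMB3, PSMC5, PSMD3, PSMD5, PSMD9, PSMD12, PSME1, PSME2, PSME4, PSMG1 and PSMG2. Only for PSMB3, PSMD3, PSMD9, PSMD12 and PSME1 did the match lie in the longest stretch outside annotated exons. The CCAAT box, CCAAT on either strand, was in 39.1% of the members' starts and 32% of all. A match is a description of letters only. Of the 12, 6 rose over the doses of Poria (PSMB3, PSMC5, PSMD3, PSMD9, PSMD12 and PSME4) and 2 fell (PSME1 and PSME2). The other 4 did not pass the test (PSMA4, PSMD5, PSMG1 and PSMG2). Of all 44 members 30 rose and 2 fell over those doses, beside 22.3% and 21.2% of all genes tested. Over the doses of licorice 6 of the 12 rose, 0 fell and 6 did not pass the test. There 22 of the 44 members and 11.0% of all genes tested rose. Whether the motif goes with the direction of change was not tested.

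In vehicle cells the transcripts differed widely in level. Per kilobase of exon, PSMB5, the subunit with chymotrypsin-like activity, was highest at 190.8 ± 8.22 CPM per kb (SD, n = 3). PSME1 followed at 106.8 ± 5.94, PSMB3 at 98.7 ± 6.77 and PSMA7 at 93.5 ± 6.86 CPM per kb (SD, n = 3). The ranges of mean ± SD overlapped for PSME1 and PSMB3, and for PSMB3 and PSMA7. The lowest were the assembly factors PSMG4 at 2.02 ± 0.129 and PSMD9 at 2.72 ± 0.0204 CPM per kb (SD, n = 3). Per kilobase of the longest transcript the same 2 genes stood first and the same 2 last.

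Poria raised most of the proteasome with dose. Of the 44 members, 30 were higher and 2 lower at 500 over 20 µg/mL (edgeR quasi-likelihood test, Benjamini-Hochberg adjusted over 16093 genes), where 22.3% of all genes tested were higher and 21.2% lower, or 43.5% in either direction. The members' median was 0.23 on the log2 scale against -0.01 for all genes tested. Every lid subunit (8 of 8) and every core beta subunit (7 of 7) rose, with medians of 0.35 and 0.21, as did 7 of 9 base subunits, with a median of 0.30. Core alpha had 3 of 7 past the threshold and a median of 0.17.

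**Figure D1:**
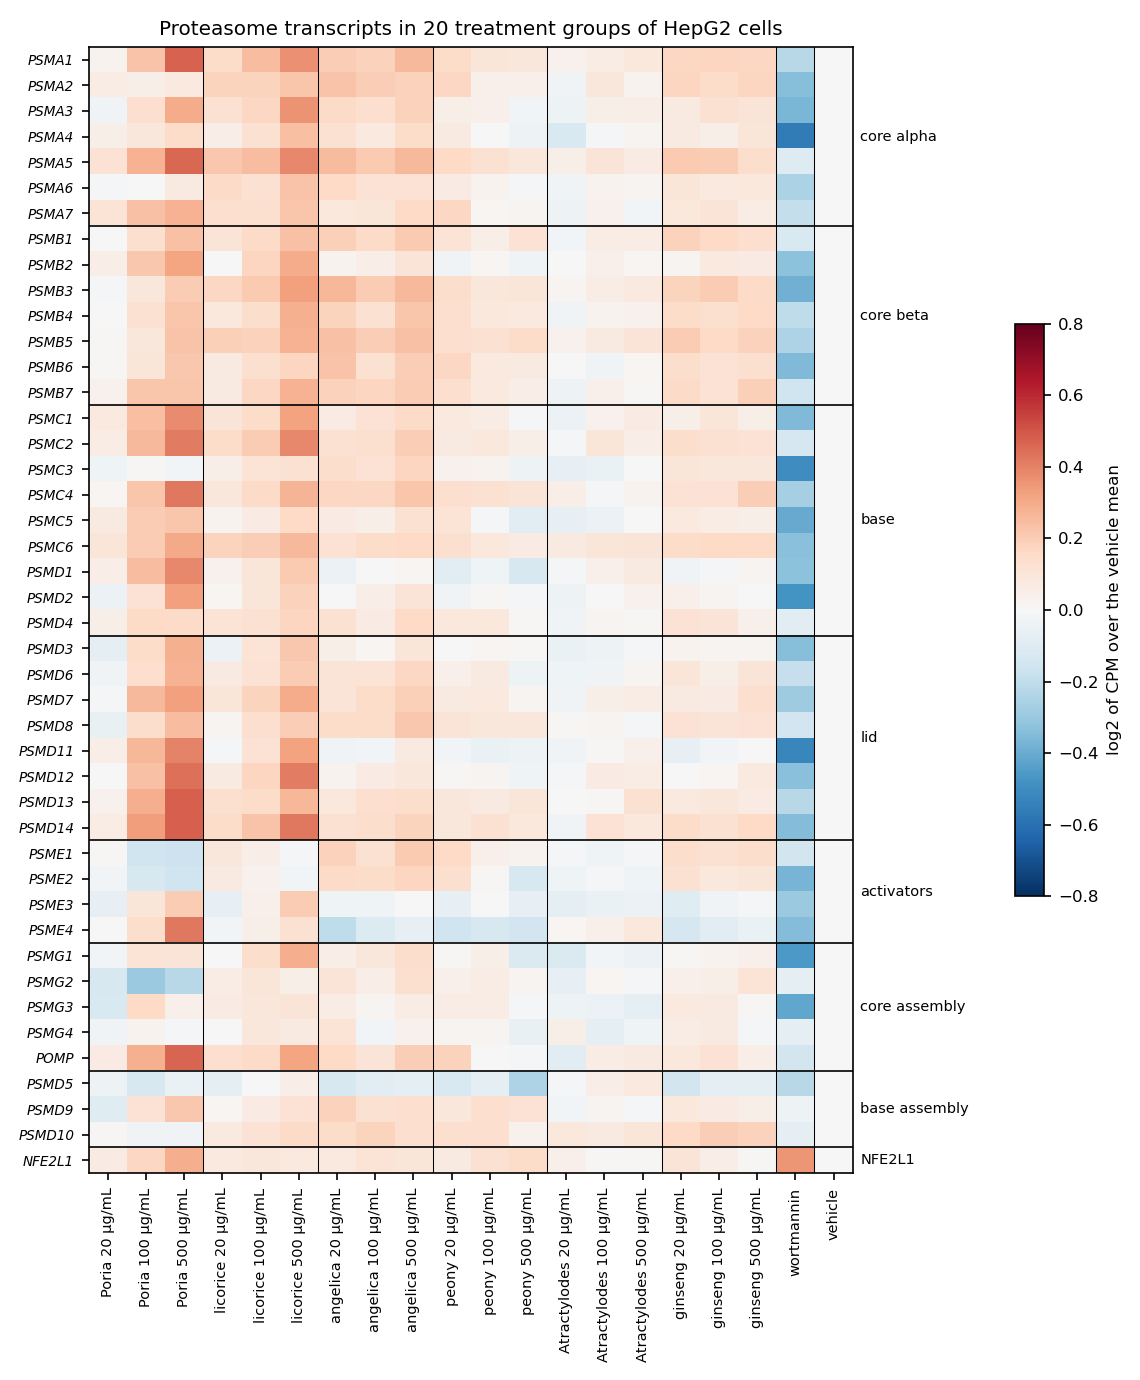
Heat map of the 44 transcripts (rows, grouped by class) in the 20 groups (columns), coloured by the mean log2 of CPM over the vehicle mean from -0.8 to 0.8. The 30 members called for Poria and the 22 called for licorice redden from 20 to 500 µg/mL, while rows such as PSMC3 for Poria and NFE2L1 for licorice do not; PSMG2, PSME1 and PSME2 are blue at 500 µg/mL of Poria, and the wortmannin column is blue except for NFE2L1.

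The lid had the highest median of the subunit classes. PSMD12, a scaffold subunit of the lid, had 98.7, 97.1 and 102 CPM at 20 µg/mL of Poria, 116, 112 and 121 CPM at 100 µg/mL and 135, 127 and 141 CPM at 500 µg/mL, so that the 3 doses did not overlap. This was a rise of 35.2% (log2 0.44 ± 0.037 SE, adjusted p = 3.87e-14). PSMD14, the deubiquitinase of the lid, had 90.01, 89.8 and 98.0 CPM at 20 µg/mL, 112, 112 and 111 CPM at 100 µg/mL and 122, 123 and 125 CPM at 500 µg/mL (log2 0.41 ± 0.045 SE, adjusted p = 8.16e-11). In PSMD14, too, the 100 µg/mL libraries lay between the other doses without overlap. PSMD13, another lid subunit, had 52.8, 50.5 and 57.5 CPM at 20 µg/mL, 67.0, 63.2 and 61.5 CPM at 100 µg/mL and 71.0, 74.0 and 72.9 CPM at 500 µg/mL (log2 0.44 ± 0.063 SE, adjusted p = 7.26e-08). The other 5 lid subunits lay between 0.30 (PSMD6) and 0.36 (PSMD3).

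Among the base subunits, the ATPase PSMC4 had 104, 106 and 113 CPM at 20 µg/mL, 117, 128 and 127 CPM at 100 µg/mL and 146, 141 and 140 CPM at 500 µg/mL of Poria (log2 0.40 ± 0.041 SE, adjusted p = 8.75e-12). PSMD2 and PSMD1, the large scaffold subunits of the base, rose by 0.38 ± 0.041 and 0.33 ± 0.033 (log2 ± SE). The ATPase PSMC3 did not follow them: it had 90.5, 96.8 and 101 CPM at 20 µg/mL and 96.2, 94.6 and 100 CPM at 500 µg/mL, a log2 value of 0.01 ± 0.058 (SE, adjusted p = 0.872). PSMD4, a ubiquitin receptor, was also short of the threshold at 0.11 ± 0.050. PSMC1 rose by 0.30 ± 0.053, but 13 annotated pseudogenes carry its name and the counting may have split reads among them. The libraries were directional per the labels, but no source used here says whether counting used strand, so reads of members whose exons overlap a gene on the opposite strand are uncertain, among them PSMD13 with SIRT3, PSME1 with EMC9, PSME2 with RNF31 and PSME4 with ACYP2.

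In the core, PSMA1 had 106, 105 and 109 CPM at 20 µg/mL, 118, 128 and 123 CPM at 100 µg/mL and 140, 147 and 150 CPM at 500 µg/mL of Poria. Its rise, 0.45 ± 0.046 on the log2 scale, exceeded that of every other member in value, although its exons overlap those of another protein-coding gene, AC018523.2, on the same strand. PSMA5 rose by 0.34 ± 0.069 and PSMA3 by 0.32 ± 0.080, whereas PSMA2 (0.03 ± 0.093), PSMA6 (0.08 ± 0.051), PSMA4 (0.10 ± 0.060) and PSMA7 (0.17 ± 0.095) did not pass the test. The exons of PSMA2 and PSMA6 also overlap those of another protein-coding gene on the same strand. With 3 and 4 annotated pseudogenes of their names, the counts of PSMA2 and PSMA6 are uncertain too. The catalytic subunit PSMB5 had 326, 341 and 351 CPM at 20 µg/mL, 323, 374 and 384 CPM at 100 µg/mL and 378, 393 and 411 CPM at 500 µg/mL, and the 100 µg/mL libraries overlapped both other doses. It rose by 16.0% (log2 0.21 ± 0.064 SE, adjusted p = 0.00507). The other catalytic subunits, PSMB6 and PSMB7, rose by 0.20 ± 0.067 and 0.19 ± 0.060, and the 7 beta subunits spanned 0.19 to 0.26.

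The activators split. PSME4, which caps the core of nuclear proteasomes without ATP, had 237, 255 and 232 CPM at 20 µg/mL, 259, 266 and 273 CPM at 100 µg/mL and 325, 320 and 324 CPM at 500 µg/mL of Poria (log2 0.42 ± 0.051 SE, adjusted p = 1.27e-09). PSME3, the nuclear relative of PSME1 and PSME2, rose by 0.27 ± 0.040. PSME1 and PSME2 form the cap that interferon induces, and both fell. PSME1 had 190, 185 and 199 CPM at 20 µg/mL, 161, 184 and 166 CPM at 100 µg/mL and 166, 172 and 170 CPM at 500 µg/mL, so the 500 µg/mL libraries lay below all at 20 µg/mL (log2 -0.17 ± 0.059 SE, adjusted p = 0.0151). PSME2 had 242, 237 and 257 CPM at 20 µg/mL and 212, 230 and 228 CPM at 500 µg/mL (log2 -0.14 ± 0.054 SE, adjusted p = 0.0344). Without Poria 20 µg/mL replicate 3 neither call held, at adjusted p = 0.0809 for PSME1 and 0.174 for PSME2, and PSME2 also lost its call without Poria 500 µg/mL replicate 1.

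Of the 5 core assembly factors, POMP, which guides ring maturation, was the only one past the threshold over the doses of Poria. It had 66.3, 57.3 and 70.7 CPM at 20 µg/mL, 80.0, 76.2 and 69.7 CPM at 100 µg/mL and 79.2, 93.0 and 83.6 CPM at 500 µg/mL (log2 0.40 ± 0.085 SE, adjusted p = 0.000114). PSMG1 to PSMG4, the chaperones of ring assembly, lay between -0.09 and 0.17. Of the base chaperones PSMD9 rose by 0.31 ± 0.065, with exons that overlap those of WDR66 and AC069503.2 on the same strand, while PSMD5 (-0.01 ± 0.050) and PSMD10 (-0.04 ± 0.070) did not pass the test. NFE2L1 had 237, 252 and 236 CPM at 20 µg/mL, 258, 269 and 252 CPM at 100 µg/mL and 284, 275 and 289 CPM at 500 µg/mL, where no 500 µg/mL library overlapped a lower dose (log2 0.23 ± 0.037 SE, adjusted p = 1.24e-06). Of the 30 members that rose, 25 stayed called in each of 9 fits that left out 1 library; the others were PSMB3, PSMB6, PSMB7, PSMC5 and PSMC6, whose calls were lost without 1 of Poria 20 µg/mL replicates 1 and 2 or of Poria 500 µg/mL replicates 2 and 3, at adjusted p up to 0.218.

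**Figure D2:**
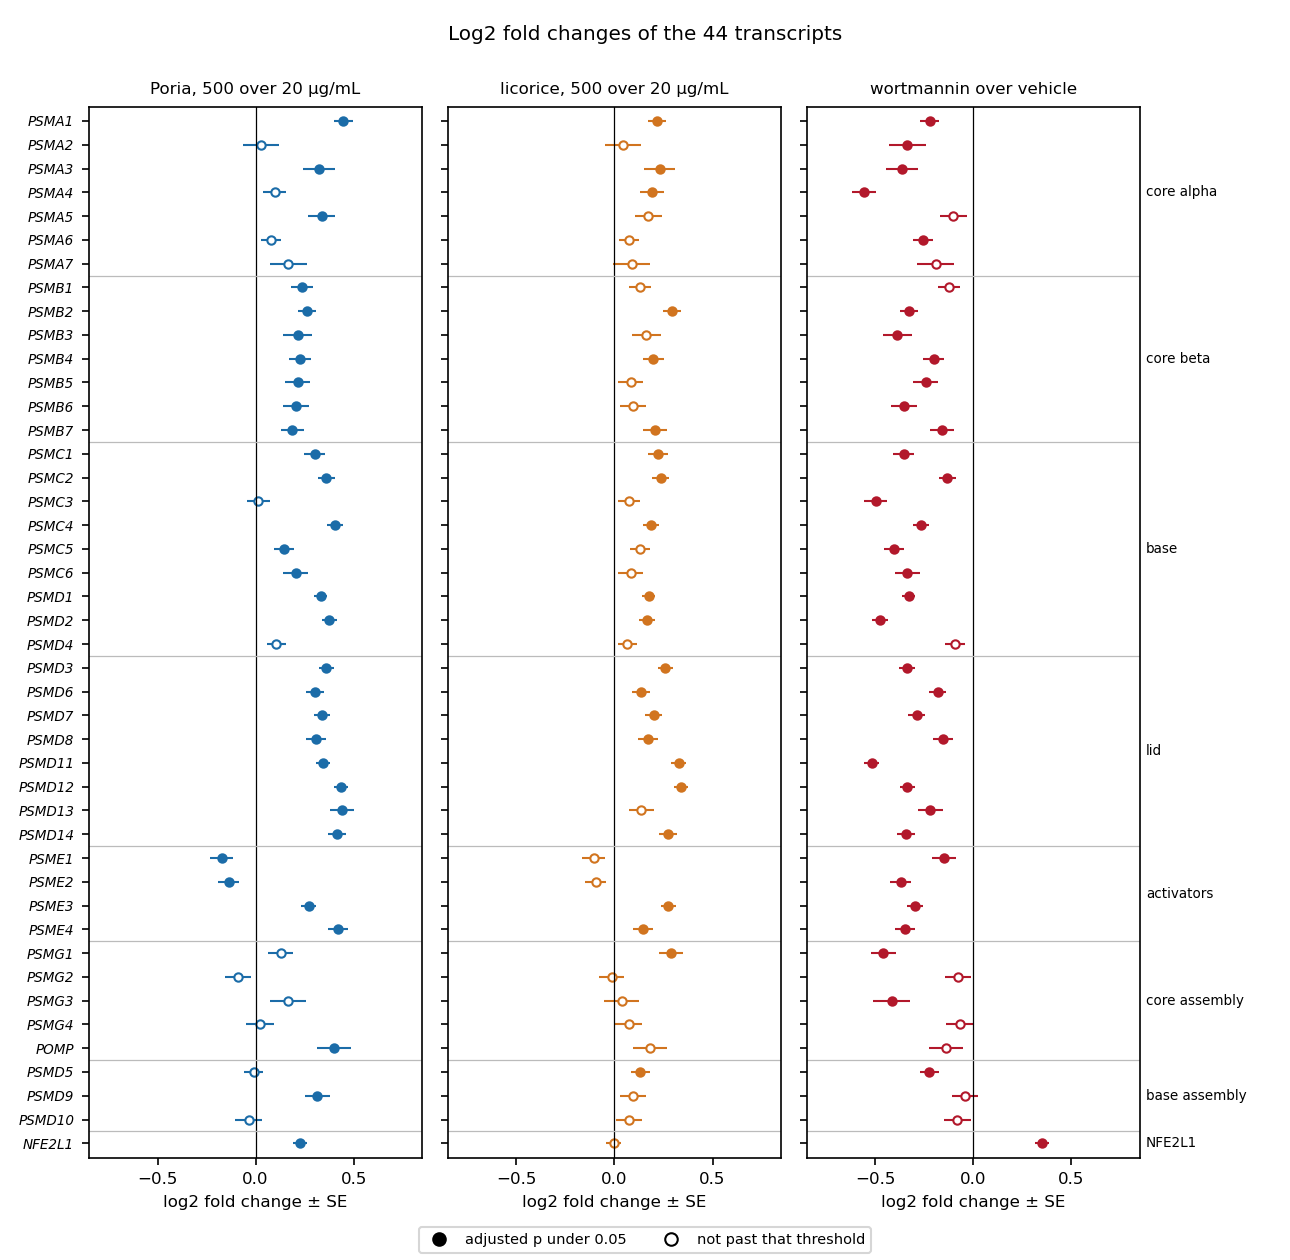
Log2 fold change with its SE for each of the 44 transcripts (rows, by class): Poria and licorice at 500 over 20 µg/mL, and wortmannin over vehicle. Filled points passed the threshold of 0.05; all 8 lid subunits are filled to the right for Poria and to the left for wortmannin, and NFE2L1 lies to the right for Poria and wortmannin and at -0.00 for licorice.

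Licorice raised 22 of the 44 members over its doses and lowered none, where 11.0% of all genes tested were higher and 10.3% lower, or 21.3% in either direction. The members' median was 0.15 against 0.00 for all genes tested on the log2 scale. The lid again had the most, with 7 of 8 higher and a median of 0.23, followed by 5 of 9 base, 3 of 7 alpha and 3 of 7 beta subunits. PSMD12 had 102, 103 and 106 CPM at 20 µg/mL of licorice, 111, 111 and 113 CPM at 100 µg/mL and 131, 130 and 132 CPM at 500 µg/mL, and the 3 doses did not overlap. Its rise was 26.4% (log2 0.34 ± 0.037 SE, adjusted p = 3.42e-10). PSMD11, also of the lid, had 122, 114 and 119 CPM at 20 µg/mL, 133, 129 and 125 CPM at 100 µg/mL and 155, 145 and 145 CPM at 500 µg/mL (log2 0.33 ± 0.037 SE, adjusted p = 9.89e-10).

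Of the 3 catalytic subunits, PSMB7 alone passed the test with licorice. PSMB5 had 372, 398 and 385 CPM at 20 µg/mL, 361, 394 and 395 CPM at 100 µg/mL and 387, 419 and 416 CPM at 500 µg/mL, which overlapped (log2 0.08 ± 0.064 SE, adjusted p = 0.403). PSMB6 was at 0.10 ± 0.066 and short of the threshold, and PSMB7 rose by 0.21 ± 0.060. PSMB2, a structural beta subunit, had 147, 136 and 141 CPM at 20 µg/mL, 158, 160 and 158 CPM at 100 µg/mL and 180, 170 and 171 CPM at 500 µg/mL, without overlap between doses (log2 0.30 ± 0.046 SE, adjusted p = 1.43e-06). PSMG1, an assembly chaperone of the alpha ring, had 66.8, 70.9 and 72.5 CPM at 20 µg/mL and 84.2, 87.8 and 84.9 CPM at 500 µg/mL (log2 0.29 ± 0.062 SE, adjusted p = 0.000338). PSME3 rose by 0.27 ± 0.040 and PSME4 by 0.15 ± 0.051, while PSME1 (-0.10 ± 0.059) and PSME2 (-0.09 ± 0.053) did not pass the test. NFE2L1 had 245, 242 and 247 CPM at 20 µg/mL, 252, 238 and 249 CPM at 100 µg/mL and 237, 256 and 239 CPM at 500 µg/mL, a log2 value of -0.00 ± 0.037 (SE, adjusted p = 0.956).

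Of the 22 members called for licorice, 14 stayed called in each of the 9 fits that left out 1 library. PSMA3, PSMA4, PSMB4, PSMB7, PSMD6, PSMD8, PSME4 and PSMD5 did not, and every licorice library at 20 or 500 µg/mL ended the call of at least 1 of them, with adjusted p up to 0.281. PSMD5, at adjusted p = 0.0476, kept its call in 2 of the 9 fits and lost it with DESeq2 (0.0599), with DESeq2's size factors (0.053), with a mean of at least 1 CPM (0.0574), without a filter (0.239), in the fit of the compared groups alone (0.086) and in the regression on log dose (0.0807).

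The libraries of Poria and of licorice come from different sets and none is in both trends. Members called higher in both numbered 19, which is 63.3% of the 30 for Poria and 86.4% of the 22 for licorice. Over all genes tested, 974 were called higher in both, which is 27.2% of those for Poria and 55.1% of those for licorice. No test was made of the members' overlap. Called for Poria alone were PSMA5, PSMB1, PSMB3, PSMB5, PSMB6, PSMC5, PSMC6, PSMD13, POMP, PSMD9 and NFE2L1, and for licorice alone PSMA4, PSMG1 and PSMD5. Being called in 1 of them does not show that the trends differ, and the difference itself, Poria minus licorice, was past the threshold for 8 members, all with the larger value for Poria, where 13.5% of all genes tested were higher and 12.3% lower (25.8% together). They were PSMD13 (0.30 ± 0.088), PSME4 (0.27 ± 0.072), PSMA1 (0.23 ± 0.065), NFE2L1 (0.23 ± 0.052), PSMC4 (0.22 ± 0.058), PSMD2 (0.21 ± 0.057), PSMD6 (0.17 ± 0.062) and PSMD1 (0.16 ± 0.046), as log2 differences ± SE. For PSMB5 the difference was 0.13 ± 0.090 (adjusted p = 0.309) and for POMP 0.22 ± 0.12 (adjusted p = 0.186). PSMD6 lost its call in 7 of 18 fits that left out a library (without Poria 20 µg/mL replicates 1 and 2, Poria 500 µg/mL replicates 2 and 3, licorice 20 µg/mL replicate 3 or licorice 500 µg/mL replicates 1 and 2), PSMD1 without Poria 20 µg/mL replicate 1 and PSMD13 without licorice 20 µg/mL replicate 2.

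**Figure D3:**
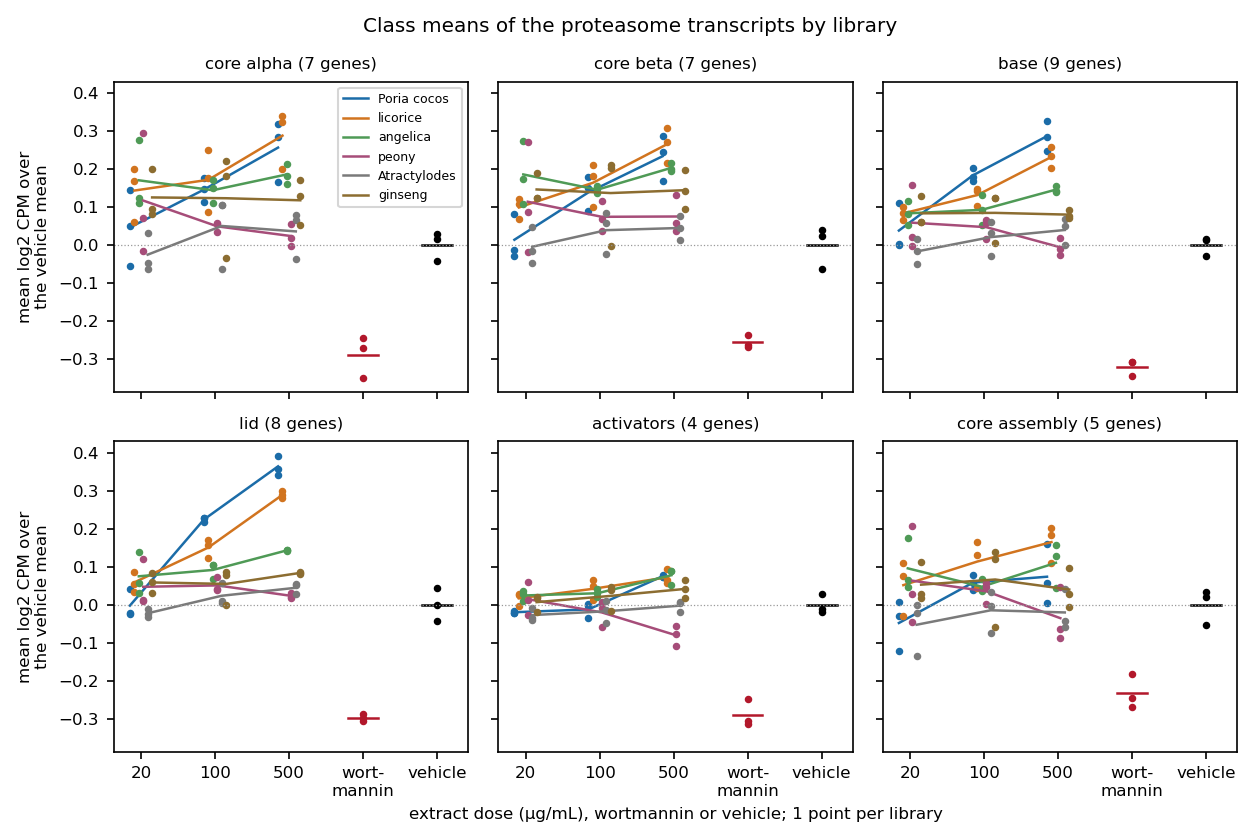
Mean log2 CPM over the vehicle mean for 6 classes, 1 point per library, with extract dose in µg/mL, wortmannin and vehicle on the x axis and lines joining the means of 3. The lid panel shows Poria at -0.00, 0.23 and 0.37 and licorice at 0.06, 0.15 and 0.29 for the 3 doses, above the other 4 extracts at 500 µg/mL, with wortmannin at -0.30.

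For the other 4 extracts no member was called higher with dose, which does not show that the set was unmoved. Atractylodes called 0 members with edgeR and 0 with DESeq2, where 0.0124% of all genes tested were higher and 0.0373% lower (0.0497% together). The 5 members with an unadjusted p under 0.05 all had positive log2 values: PSMA4, PSMC1, PSMD1, PSMD7 and PSMD14, at 0.09 to 0.14. Ginseng called 0 with either tool, where 0.0249% were higher and 0.124% lower (0.149% together). The 2 with an unadjusted p under 0.05 were NFE2L1 at -0.10 and PSME3 at 0.08. Angelica called 0 with either tool, where 0.534% were higher and 0.684% lower (1.22% together). The 4 with an unadjusted p under 0.05 all had positive log2 values: PSMD2, PSMD7, PSMD11 and PSME4, at 0.09 to 0.13. The shares of all genes given here are at the adjusted threshold. No share at an unadjusted p under 0.05 stands beside the counts of 5, 2 and 4. They are therefore not read as a result about the members. Peony lowered 2 members, where 1.70% of all genes tested were lower and 1.78% higher, or 3.49% together. One was PSME2, with 257, 298 and 261 CPM at 20 µg/mL of peony, 255, 250 and 246 CPM at 100 µg/mL and 230, 234 and 219 CPM at 500 µg/mL (log2 -0.26 ± 0.054 SE, adjusted p = 0.00159). The second was the ATPase PSMC5, with 116, 132 and 123 CPM at 20 µg/mL and 105, 112 and 106 CPM at 500 µg/mL (log2 -0.20 ± 0.051 SE, adjusted p = 0.0147). Both calls were lost without peony 20 µg/mL replicate 2, the highest library for both, at adjusted p = 0.0705 for PSME2 and 0.183 for PSMC5, and PSMC5 also lost its call without peony 500 µg/mL replicate 1 or 3. A joint test that the 6 dose trends are equal called 30 members, where 35.1% of all genes tested were called, so trends differed between extracts for these members, PSMD12 among them (adjusted p = 7.56e-11).

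Poria and licorice raised proteasome genes with dose. Earlier results of these data had already shown that these 2 extracts raise NRF2 targets, and the list was chosen with those results known. The counts below describe that trait and are no separate support for a link. Of 31 tested genes in a list of NRF2 targets, 30 rose over the doses of licorice and 28 over those of Poria. Among all genes tested 11.0% and 22.3% rose. Angelica raised 10 of the list, peony 8, Atractylodes 1 and ginseng 0, where 0.534%, 1.78%, 0.0124% and 0.0249% of all genes tested rose. Only licorice and Poria had a majority. For angelica the 10 stood beside 0 proteasome members called over its doses. NQO1, a quinone reductase, rose by 1.29 ± 0.045 with licorice and 1.10 ± 0.045 with Poria on the log2 scale. GCLM, a subunit of the enzyme that limits glutathione synthesis, rose by 1.39 ± 0.051 and 1.38 ± 0.051. The mean level of the NRF2 list over vehicle, in log2, was 0.07, 0.44 and 0.82 at 20, 100 and 500 µg/mL of Poria and 0.05, 0.23 and 0.80 for licorice, whereas the mean of the 44 members was 0.01, 0.13 and 0.23 for Poria and 0.08, 0.13 and 0.22 for licorice. Angelica and peony at 500 µg/mL had NRF2 list means of 0.20 and 0.19 and member means of 0.14 and 0.01. The 2 lists did not always move together: wortmannin left the NRF2 mean at -0.01, while the member mean stood at -0.26. Of the NRF2 list 11 genes were higher and 12 lower with wortmannin than in vehicle, beside 22.4% and 24.0% of all genes tested.

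**Figure D4:**
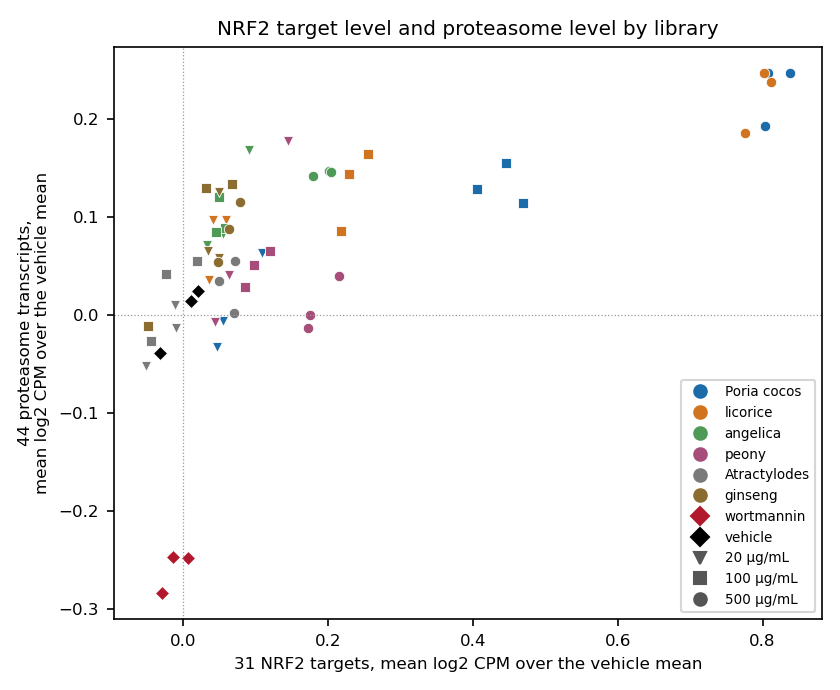
Each point is 1 library: mean log2 CPM over the vehicle mean for 31 NRF2 targets (x axis) and for the 44 proteasome transcripts (y axis), coloured by treatment, with symbols for dose. The 6 libraries of Poria and licorice at 500 µg/mL lie at the upper right, and the 3 wortmannin libraries lie near 0 on the x axis and at -0.28 to -0.25 on the y axis.

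With wortmannin most proteasome transcripts were lower than with vehicle. Of the 44 members 34 were lower and 1 higher than in vehicle, where 24.0% of all genes tested were lower and 22.4% higher (46.3% together), and the members' median was -0.28 against 0.01 for all genes on the log2 scale. All 8 lid subunits and all 4 activators were lower, as were 8 of 9 base, 6 of 7 beta and 5 of 7 alpha subunits, 2 of 5 core assembly factors and 1 of 3 base assembly factors. PSMD11 had 80.1, 88.2 and 80.4 CPM with wortmannin, against 119, 118 and 120 CPM with vehicle, and the groups did not overlap (log2 -0.52 ± 0.038 SE, adjusted p = 1.3e-16). PSMA4, an alpha subunit, had 79.1, 84.3 and 84.5 CPM with wortmannin, against 122, 123 and 120 CPM with vehicle, the largest fall of the set in value (log2 -0.56 ± 0.061 SE). The ATPase PSMC3, which Poria did not move past the threshold, had 69.5, 72.7 and 66.9 CPM with wortmannin, against 99.6, 99.8 and 95.8 CPM with vehicle (log2 -0.50 ± 0.058 SE).

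NFE2L1 went the other way. It had 292, 294 and 300 CPM with wortmannin, against 225, 232 and 237 CPM with vehicle, without overlap, and was 27.5% higher (log2 0.35 ± 0.037 SE, adjusted p = 1.59e-11). PSMB5 had 282, 269 and 302 CPM with wortmannin, against 349, 340 and 321 CPM with vehicle (log2 -0.24 ± 0.064 SE, adjusted p = 0.00135), and PSME4 had 188, 191 and 191 CPM with wortmannin, against 244, 235 and 245 CPM with vehicle (log2 -0.35 ± 0.051 SE). POMP (-0.14 ± 0.086), PSMA5 (-0.10 ± 0.070), PSMA7 (-0.19 ± 0.096), PSMB1 (-0.12 ± 0.056) and PSMD4 (-0.09 ± 0.050) were among the 9 members that did not pass the test. Every one of the 19 members that rose with both Poria and licorice was among the 34, which those 19 make 55.9% of; over all genes tested, 43% of the 974 that rose with both were lower with wortmannin. Of the 34, the calls of PSMB7, PSMC2, PSMD8 and PSME1 were lost without a library, at adjusted p up to 0.211: PSMB7 without vehicle replicate 1 or wortmannin replicate 1 or 3, PSMC2 without wortmannin replicate 1, PSMD8 without vehicle replicate 1 or wortmannin replicate 3, and PSME1 without vehicle replicate 2 or wortmannin replicate 1 or 3.

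**Figure D5:**
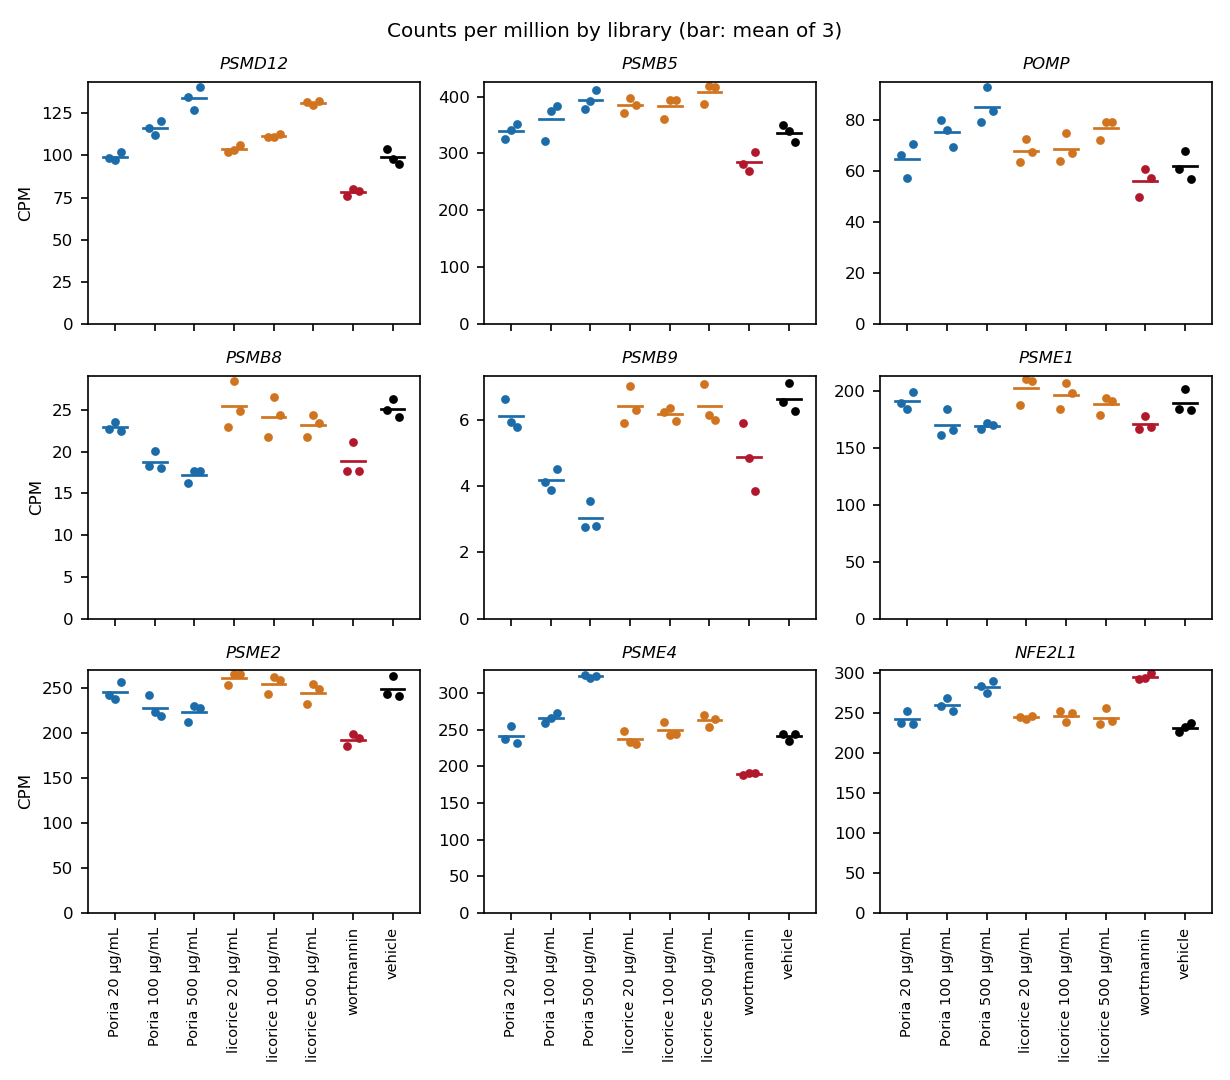
CPM by library (points; bar, mean of 3; y axes start at 0) for 9 genes at 20, 100 and 500 µg/mL of Poria and licorice, with wortmannin and with vehicle. PSMB9 falls to 2.78 to 3.55 CPM at 500 µg/mL of Poria and stays at 6.01 to 7.08 CPM at 500 µg/mL of licorice, while PSMD12 rises with both and is lowest with wortmannin.

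Against vehicle at 500 µg/mL, Poria had 33 members higher and 3 lower, beside 23.9% and 23.7% of all genes tested (47.6% together), and licorice 31 higher and 0 lower, beside 16.7% and 15.7% (32.4% together). The 3 lower with Poria were PSMG2, PSME1 and PSME2, at -0.22, -0.17 and -0.16 on the log2 scale. Angelica had 19 higher and 0 lower, beside 9.51% and 9.41% (18.9% together), with PSMA1 at 0.26 ± 0.046 and PSMC4 at 0.22 ± 0.041 (log2 ± SE). Ginseng had 5 higher and 0 lower, beside 4.66% and 5.58% (10.2% together), namely PSMA1, PSMB7, PSMC4, PSMD7 and PSMD14 at 0.13 to 0.20. Peony had 1 higher and 3 lower, beside 9.68% and 9.98% (19.7% together): NFE2L1 at 0.15 ± 0.037, and PSMD1, PSME4 and PSMD5 at -0.13, -0.15 and -0.25. Atractylodes had 0 in either direction with edgeR and with DESeq2, beside 0.559% and 0.329% (0.889% together), and 1 at an unadjusted p under 0.05. No share of all genes at that unadjusted p stands beside this count. These comparisons share the same 3 vehicle libraries, and without vehicle replicate 3 the count was 9 for angelica and 1 for ginseng. Of the 19 for angelica, 8 stayed called in each of 6 fits that left out 1 library. PSMB1, PSMB5 and PSME1 also lost their angelica calls without angelica 500 µg/mL replicate 2. The ginseng count was also 1 without ginseng 500 µg/mL replicate 2, 2 without ginseng 500 µg/mL replicate 3 and 3 without vehicle replicate 2. Poria had 1 lower member without vehicle replicate 2 or without Poria 500 µg/mL replicate 1, and peony had 0 higher without peony 500 µg/mL replicate 1. PSMG2 lost its Poria call without vehicle replicate 1 (adjusted p = 0.126). For peony, PSMD1 lost its call without a filter (adjusted p = 0.105), and PSME4 lost its call without vehicle replicate 1 or 3 or peony 500 µg/mL replicate 2 or 3 (adjusted p up to 0.103).

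The level at 20 µg/mL bears on these counts. For angelica and ginseng the mean of the 44 members over vehicle was already 0.11 ± 0.053 and 0.08 ± 0.037 (log2, SD, n = 3) at 20 µg/mL, and 0.14 ± 0.0028 and 0.09 ± 0.031 at 500 µg/mL. A list of 12 heat shock genes, which code for chaperones such as HSPA8, stood above vehicle at 20 µg/mL of every extract, by 0.21 to 0.36 in log2. Every extract differs from vehicle in set label as well as in treatment, so these cannot be told apart here.

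The genes around the proteasome were read from 3 further lists, whose counts stand beside 22.3% higher and 21.2% lower of all genes tested for Poria, 11.0% and 10.3% for licorice, and 22.4% and 24.0% for wortmannin. Of 15 tested genes for variant and associated subunits, 8 rose and 3 fell over the doses of Poria, 5 rose and 1 fell over those of licorice, and 1 was higher and 9 lower with wortmannin than with vehicle; the shares that fell with Poria and licorice were near or below those of all genes. The inducible immunoproteasome subunits PSMB8 and PSMB9 replace catalytic subunits after interferon. PSMB9 had 6.63, 5.92 and 5.79 CPM at 20 µg/mL of Poria, 4.13, 3.89 and 4.52 CPM at 100 µg/mL and 2.78, 3.55 and 2.79 CPM at 500 µg/mL, without overlap between doses, a fall of 50.3% (log2 -1.01 ± 0.12 SE, adjusted p = 1.96e-09). PSMB8 had 22.8, 23.6 and 22.5 CPM at 20 µg/mL, 18.3, 20.1 and 18.1 CPM at 100 µg/mL and 16.2, 17.7 and 17.7 CPM at 500 µg/mL (log2 -0.42 ± 0.079 SE, adjusted p = 1.65e-05). Over the doses of licorice PSMB9 was at 0.01 ± 0.11 and PSMB8 at -0.13 ± 0.075, neither past the threshold, and the third inducible subunit, PSMB10, was at -0.24 ± 0.11 for Poria (adjusted p = 0.0719). The difference, Poria minus licorice, passed the test for all 3, at -1.01 ± 0.16 for PSMB9, -0.40 ± 0.15 for PSMB10 and -0.29 ± 0.11 for PSMB8. PSMB10 and PSMB8 were near the threshold, at adjusted p = 0.0407 and 0.0434 in the edgeR test. The PSMB8 call was lost in some of the fits that left out a library, and PSMB10 was not followed through those fits. With wortmannin, PSMB8 and PSMB9 were lower than with vehicle by -0.41 ± 0.076 and -0.45 ± 0.11 in log2.

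Among the associated genes, ADRM1, a ubiquitin receptor of the base, rose by 0.54 ± 0.059 with Poria and 0.32 ± 0.059 with licorice, and was at -0.43 ± 0.060 with wortmannin against vehicle, in log2. ZFAND5, which stimulates the proteasome, rose by 0.54 ± 0.040 and 0.20 ± 0.041 over the doses of Poria and licorice. UCHL5, a deubiquitinase bound by ADRM1, rose by 0.29 ± 0.048 with licorice and was at 0.07 ± 0.048 with Poria, short of the threshold.

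Of 16 genes that process or partner NFE2L1, 10 rose and 2 fell over the doses of Poria, and 2 rose and 2 fell over those of licorice, where these shares were near those of all genes. The small MAF proteins pair with NFE2L1 and NRF2 on DNA: MAFF rose by 1.01 ± 0.091, MAFK by 0.70 ± 0.081 and MAFG by 0.43 ± 0.042 with Poria, and with licorice MAFG rose by 0.51 ± 0.042 while MAFF (0.25 ± 0.097) and MAFK (0.06 ± 0.083) did not pass the test. DDI2, the protease that releases NFE2L1 from the membrane, fell with Poria (-0.40 ± 0.060), and NGLY1, which removes its sugar chains, rose (0.24 ± 0.052). Of 17 genes for ubiquitin, its shuttles and cofactors of the VCP segregase, 10 rose and 2 fell with Poria and 7 rose and 0 fell with licorice; SQSTM1, a ubiquitin-binding autophagy receptor and NRF2 target, rose by 1.82 ± 0.0385 and 0.73 ± 0.0379. Heat shock genes gave other counts: 5 of 12 rose and 2 fell with Poria, 2 rose with licorice, 8 fell over the doses of peony, where 1.70% of all genes fell, and 9 were lower with wortmannin than with vehicle, where 24.0% were. The counts that fell with Poria and rose with licorice were near the shares of all genes.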

How the data were processed

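RNA was measured in 60 HepG2 libraries. The authors deposited expected counts per gene; per the submitters' processing notes FastQC 0.11.9, Trim Galore 0.6.5, STAR 2.7.3a and RSEM 1.3.3 were used with the hg38 genome; the annotation release is not given in the sources used here. RSEM shares reads among similar genes, so members with pseudogenes or read-through neighbours are uncertain. Of the table's 270 columns, 60 matched the samples and 210 were not used. Values (76.1% of those above 0 were whole) were rounded.

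Counts were fitted with edgeR 4.0.16 in R 4.3.3 (TMM; filterByExpr with a minimum count of 10; 16093 genes; quasi-likelihood test; 1 mean per group, no covariate; 40 residual degrees of freedom; threshold 0.05, Benjamini-Hochberg within each comparison). A dose trend is the linear contrast over log dose, given as 500 over 20 µg/mL. Alternatives were DESeq2 1.42.0, its size factors, other filters, a replicate block, a regression on dose, fits of the compared groups alone, and leaving out each library. Library pairs of a group differed beyond sampling noise (chi-square per gene 2.42 to 27.0). The fit was tested on simulated data. Of 100 genes changed by 1.2-fold, 74 were called in the Poria trend and 78 with wortmannin. Of 100 changed by 1.5-fold, 99 were called in each. False calls made up 5.46% and 3.8% of the calls. Only these genes were changed, all upward and picked among genes of higher count, with noise at the fitted spread. In the real data 43.5% of all genes tested were called in the Poria trend and 46.3% with wortmannin. The simulated rates therefore need not hold in these comparisons. Small changes can miss the threshold in such a fit. Replicate numbers were in the labels; deviations of same-numbered libraries correlated above 0.1 in every pair only for the peony trend (0.104 to 0.326 over 9327 genes).

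Members and lists were chosen with earlier results of these data known. Genes with values were named by rule (smallest p, largest change per class, fixed members, and list genes of smallest p); other members, PSMB10, UCHL5, MAFK, NQO1 and NGLY1 where named beyond it, were chosen after their values were seen. Member coordinates and overlaps are from GENCODE on GRCh38.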

Additional observations from a re-analysis of the deposited data

Results flagged for a closer look

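These results are listed because a test of the difference between dose trends passed its threshold. The test that the 6 dose trends are equal called 30 of 44 members, where 35.1% of all genes tested were called. The difference between the Poria and licorice trends called 8 of 44, all higher, where 13.5% of all genes tested were higher and 25.8% were called in either direction, a share of members near that of all genes. The log2 differences, Poria minus licorice, were 0.30 for PSMD13, 0.27 for PSME4, 0.23 for PSMA1, 0.23 for NFE2L1, 0.22 for PSMC4, 0.21 for PSMD2, 0.17 for PSMD6 and 0.16 for PSMD1. For the inducible subunits the difference had the opposite sign, at -1.01 for PSMB9, -0.40 for PSMB10 (adjusted p = 0.0407) and -0.29 for PSMB8, and the PSMB8 call was lost in 8 of the 18 fits that left out a library. Poria and licorice belong to different sets, and the part of the set in these differences was not tested.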

How the results depend on the processing

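The counts of members over the doses of Poria (higher) and licorice and with wortmannin stayed within 1.5 times under DESeq2, its size factors, a mean of at least 1 CPM, no filter, fits of the compared groups alone and, for trends, a regression on log dose. The Poria trend had 1 lower member in the fit of the compared groups alone and in the regression, against 2. Without a filter ginseng at 500 µg/mL against vehicle had 8 higher, against 5, and peony 2, against 1; peony also had 2 in the fit of the compared groups alone. The cause was not tested. With the replicate block the Poria trend kept counts of 30 and 2, licorice 22 and wortmannin 34 lower, and no count moved by over 1.5 times; outside the peony trend the numbers were not shown to pair the libraries.

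Leaving out 1 library gave 26 to 33 higher and 0 to 2 lower over the doses of Poria (0 without Poria 20 µg/mL replicate 3), 17 to 22 higher for licorice, 0 to 1 higher for angelica (1, PSME4, without angelica 20 µg/mL replicate 1) and 0 to 2 lower for peony (0 without peony 20 µg/mL replicate 2). Against vehicle at 500 µg/mL it gave 1 to 3 lower for Poria (1 without vehicle replicate 2), 1 to 7 higher for ginseng, 9 to 21 for angelica and 0 to 1 for peony (0 without peony 500 µg/mL replicate 1). The lowest count of a member in a library was 301; depth and the number of libraries were not compared as limits.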
